A study of Mus musculus with 18 samples.

Results

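Mice with 2 D45 alleles of Klf1 (genotype D45/D45) were set against mice with 1 wild-type (WT) and 1 D45 allele (WT/D45), a step in which the last wild-type copy of the gene is replaced and a D45 copy is kept. The comparison takes 3 libraries of each genotype, 6 of the 18 in the series, and its members were chosen by genotype label alone. D45 stands for MommeD45, a missense allele that by the title of the series lies in linker-2 of the protein. Spleen cells had been sorted by flow cytometry on TER119, a surface antigen of maturing red cells, and CD71, the receptor for transferrin. The RNA was sequenced and counted per gene, and the replicates are described as biological. Both groups carry at least 1 D45 allele. 3 further genotypes were used beside them: WT/WT with 3 libraries, WT/KO with 5 and D45/KO with 4, where KO is a knockout allele. The series describes haemolytic anaemia with an enlarged spleen for compound heterozygous mice, which in these labels is D45/KO. Age, sex and strain were not given in the sources used here.

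KLF1 is a transcription factor of the erythroid lineage with 3 zinc fingers at its C-terminal end, by which it binds CACCC-type sequences in promoters and enhancers. It is known for activating adult beta-globin, haem synthesis enzymes, proteins of the red cell membrane and its skeleton, blood group antigens and cell cycle regulators. It also activates Bcl11a, which encodes a repressor of embryonic globin genes. In a spleen that makes red cells, CD71 and TER119 double-positive cells are erythroblasts still building haemoglobin and the membrane.

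Values per gene are given as CPM, counts per 1000000 after adjustment of library size by TMM (trimmed mean of M-values), and fold changes are D45/D45 over WT/D45 on a log2 scale with the standard error (SE). Total counts were 34.4, 21.4 and 42.0 M (1000000 counts) in D45/D45 replicates 1 to 3 and 56.3, 15.8 and 28.0 M in WT/D45. Klf1 was measured at 709.5, 1576 and 1394 CPM in D45/D45 and at 551, 1101 and 1295 CPM in WT/D45. Replicate 1 was the lowest library in each genotype, and the groups overlapped (log2 fold change 0.32 ± 0.64, unadjusted p = 0.624 by edgeR). In the other genotypes Klf1 averaged 821 ± 322 CPM in WT/WT (SD, n = 3), 415 ± 311 CPM in WT/KO (SD, n = 5) and 576 ± 209 CPM in D45/KO (SD, n = 4). A missense allele need not alter its own transcript level, so this gene is no check of these labels. The erythroblast markers Tfrc, Klf1, Gata1, Epor, Slc4a1, Alas2 and Hbb-b1 were all at 208 CPM or above in each of the 6 libraries.

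Replicate 1 of both genotypes stood apart from the other libraries. The mean log2 CPM of the B cell markers was 6.45 in D45/D45 replicate 1 and 7.10 in WT/D45 replicate 1, and between -1.33 and -0.12 in the other 4. Globin genes took 9.46% and 10.1% of the counts in these replicate 1 libraries and 18.7% to 35.8% in the others. These are also the 2 libraries of the 6 from mice with a number under 200, and the labels do not say what the mouse or replicate number stands for. D45/D45 replicate 1 had an even count in 96.8% of genes with 20 or more counts, against 53.3% to 62.8% in the other 5 libraries. D45/D45 replicate 3 was alone among the 6 in carrying Y-linked transcripts (294 CPM summed), with Xist, the non-coding RNA of the inactive X chromosome, at 4.22 CPM against at least 522 CPM in the others.

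**Figure D1:**
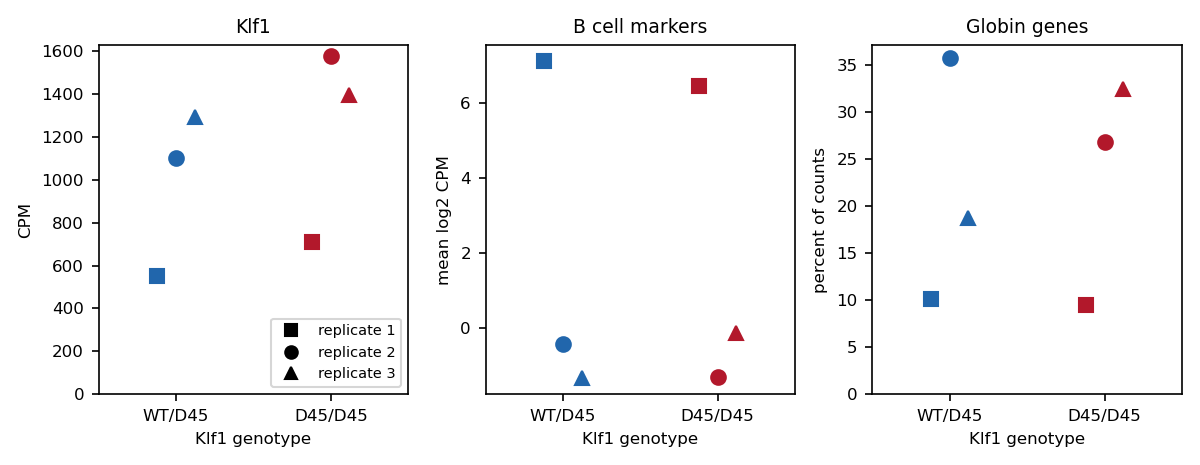
Klf1 in CPM, mean log2 CPM of B cell markers and globin genes as a percent of counts, in each WT/D45 and D45/D45 library, with the symbol giving the replicate number. Replicate 1 of both genotypes has the highest B cell marker level (6.45 and 7.10), and the lowest globin share (9.46% and 10.1%) and Klf1 level in its group.

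Loss of the last wild-type allele went with lower Rgcc, Tinagl1 and Cacna1g and higher Itga2b, Btn1a1 and Scai in D45/D45 than in WT/D45, but whether a gene passed the test depended on whether same-numbered libraries were compared with each other. With genotype as the only term, edgeR's quasi-likelihood test called 0 of the 13405 tested genes at an adjusted p under 0.05 (0% called), with 233 genes at an unadjusted p under 0.05, of which 91 were higher and 142 lower. DESeq2 called 15 genes with the same genotype term. Same-numbered libraries deviated together from their group means in all 3 pairs (correlations 0.77, 0.26 and 0.37). D45/D45 replicate 2 with WT/D45 replicate 3 (0.42) and D45/D45 replicate 3 with WT/D45 replicate 2 (0.19) did so too. Deviations from a mean sum to 0, so replicate 1, far off in both groups, shifts the others together. The check thus sets replicate 1 apart but cannot tell replicates 2 and 3 from each other. With the replicate number as a block, edgeR called 145 genes (1.08% of those tested), 110 higher (0.821%) and 35 lower (0.261%). All 145 had the same sign without the block, and in 142 each of the 3 same-numbered pairs differed in the direction of the fit. Both counts largely follow from the choice of these genes by the block fit on the same libraries. In 67 of the 145 the libraries of the genotypes did not overlap. Among all genes tested, the 3 D45/D45 libraries lay above the 3 WT/D45 libraries in 318 genes (2.37%) and below them in 347 (2.59%). The block leaves 2 residual degrees of freedom among the 6 libraries, and 35 of the 145 genes were called in each of 8 other versions of the block fit. Without replicate 1 of both genotypes the block fit called 224 genes, and a block that only set replicate 1 apart from replicates 2 and 3 called 36, all among the 145. In what follows, rose and fell refer to genes called with the block. Without it none of these genes passed, the adjusted p being 1 for each (edgeR).

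The largest losses were in a small set of genes that were expressed in WT/D45 and low in D45/D45. Of these, Rgcc, Tinagl1 and Cacna1g were known from earlier results of these data as lowered in D45/KO. Rgcc, a regulator of the cell cycle, was at 0.884, 1.43 and 0.167 CPM in D45/D45 and at 20.2, 13.5 and 15.6 CPM in WT/D45. Every D45/D45 library lay below every WT/D45 library, and Rgcc fell by 4.57 ± 0.55 (log2, edgeR with the block, adjusted p = 0.000234). Tinagl1, which encodes a secreted glycoprotein of the extracellular matrix, was at 0.368, 0.643 and 1.29 CPM against 4.81, 21.99 and 16.3 CPM. The groups were again apart, with the lowest value of WT/D45 in replicate 1 (log2 fold change -4.09 ± 0.49, edgeR adjusted p = 0.000234). Cacna1g, the pore subunit of a T-type calcium channel, was at 2.65, 3.21 and 4.42 CPM against 13.8, 57.1 and 48.7 CPM. It fell in all 3 pairs without overlap (log2 fold change -3.30 ± 0.32, edgeR adjusted p = 2.33e-05), and was the 1 gene called when the B cell marker level was a covariate in place of the block (edgeR adjusted p = 0.0159). Lats2, a kinase of the Hippo pathway, was at 6.26, 0.429 and 1.84 CPM against 18.2, 20.3 and 34.5 CPM, with D45/D45 replicate 1 the highest of its group but below all of WT/D45.

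The upstream sequences of Tinagl1 and Rgcc are shown because these genes fell furthest, and that of Itga2b because it rose with the smallest adjusted p of the block fit. They are the 250 bases before the RefSeq start (GRCm38.p6, all 3 on the minus strand), 5′ to 3′, at chr4:130174803-130175052 for Tinagl1 (1 of its 2 entries, the one nearer to the gene), chr14:79301636-79301885 for Rgcc and chr11:102469884-102470133 for Itga2b. Capitals mark each match on either strand to CCNCNCCC, a CACCC-type motif that GC boxes such as CCCCGCCC also match.
Tinagl1: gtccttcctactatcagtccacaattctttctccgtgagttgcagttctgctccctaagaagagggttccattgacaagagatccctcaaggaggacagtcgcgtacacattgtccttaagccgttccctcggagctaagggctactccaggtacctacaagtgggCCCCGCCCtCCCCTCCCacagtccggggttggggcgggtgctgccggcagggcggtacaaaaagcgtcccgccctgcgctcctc
Rgcc: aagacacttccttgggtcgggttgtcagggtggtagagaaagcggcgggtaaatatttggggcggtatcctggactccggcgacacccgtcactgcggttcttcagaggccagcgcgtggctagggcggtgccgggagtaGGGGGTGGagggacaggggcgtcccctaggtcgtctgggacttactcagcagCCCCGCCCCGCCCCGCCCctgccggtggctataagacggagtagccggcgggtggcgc
Itga2b: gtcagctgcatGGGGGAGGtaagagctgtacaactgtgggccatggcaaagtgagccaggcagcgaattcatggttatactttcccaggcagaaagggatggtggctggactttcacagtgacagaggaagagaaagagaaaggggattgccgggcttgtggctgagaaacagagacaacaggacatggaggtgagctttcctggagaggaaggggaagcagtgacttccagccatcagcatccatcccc
The printed sequence of Tinagl1 held 2 matches (its other entry 5), that of Rgcc 4, of which some overlap, and that of Itga2b 1. The entry of Scai, not shown, held 0. The motif was found upstream of 45.9% of all 32851 promoter entries and of 66.9% of the 9886 tested genes with an entry. Of the block calls with an entry, it was found in 61 of 80 that were higher (76.2%) and in 22 of 26 that were lower (84.6%). A match shows only that these letters are present, and a motif this loose is common in GC-rich promoters.

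Smaller falls, without overlap between the genotypes, were measured in Mfhas1, Eef2k and Sec14l1. Mfhas1, a leucine-rich repeat protein, was at 12.3, 6.72 and 6.05 CPM in D45/D45 and 32.7, 43.6 and 56.6 CPM in WT/D45 (log2 fold change -2.43 ± 0.31 with the block). Eef2k, the kinase that inhibits translation elongation factor eEF2, was at 28.2, 43.6 and 40.99 CPM against 60.4, 105 and 145 CPM (-1.39 ± 0.20). Sec14l1, a lipid-binding domain protein, was at 20.95, 19.9 and 21.8 CPM against 36.1, 78.4 and 93.4 CPM (-1.62 ± 0.25). In each of the 3 genes replicate 1 was the lowest WT/D45 library. Neu3, a sialidase that acts on gangliosides, Pqlc3, a PQ-loop membrane protein, Klhl7, an adaptor of a ubiquitin ligase, Tfcp2, a transcription factor of the CP2 family, and Tbccd1, a tubulin cofactor C domain protein, fell as well, with log2 fold changes of -1.80, -2.04, -1.71, -2.38 and -1.26. The calls of Tfcp2 and Tbccd1 were lost without replicate 3 of both genotypes, and that of Neu3 without replicate 2. Tac2, which encodes the neuropeptide neurokinin B, was at 5.67, 6.29 and 3.67 CPM against 18.1, 7.90 and 32.7 CPM without overlap, but was not called (edgeR adjusted p = 0.073 with the block).

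By level, the rises were led by genes already well expressed in WT/D45. Itga2b, the integrin subunit CD41 of megakaryocytes and early progenitors, was at 137, 444 and 357 CPM in D45/D45 and at 13.4, 73.6 and 40.1 CPM in WT/D45. The lowest D45/D45 value, in replicate 1, lay above the highest of WT/D45, and the rise was 2.59 to 3.35 on the log2 scale in the 3 pairs (log2 fold change 3.03 ± 0.22, edgeR adjusted p = 9.67e-07 with the block, unadjusted p = 0.0103 without it). Btn1a1, a butyrophilin of the immunoglobulin superfamily, had the same order of libraries, at 161, 523 and 388 CPM against 24.6, 113 and 99.7 CPM (2.29 ± 0.22). Both genes were low in replicate 1 of either genotype, where B cell markers were high. The part of the other cells in these levels was not tested beyond the block and the covariate.

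Other genes rose to similar levels in all 3 D45/D45 libraries, replicate 1 included. Scai, which encodes a nuclear cofactor that represses actin-responsive transcription, was at 45.7, 44.4 and 60.7 CPM in D45/D45 and at 18.5, 20.3 and 14.3 CPM in WT/D45 (log2 fold change 1.51 ± 0.23, edgeR adjusted p = 0.00196 with the block). Zfp790, a zinc finger protein, was at 20.03, 24.3 and 16.6 CPM against 5.10, 5.34 and 5.30 CPM (1.93 ± 0.32), and had the smallest p of all genes without the block (unadjusted p = 0.000115, edgeR). Rap1gap, which switches off the small GTPase Rap1, was at 41.9, 33.5 and 37.9 CPM against 13.8, 5.98 and 6.74 CPM (2.18 ± 0.27). None of the 3 genes overlapped between genotypes. Pinx1, a telomerase inhibitor, was at 6.33, 27.7 and 18.6 CPM against 4.34, 4.27 and 3.72 CPM, with D45/D45 replicate 1 close to WT/D45. It rose by 1.84, a call that was lost without replicate 2 or replicate 3 of both genotypes, as were those of Insig1 and Serping1, while that of Slc23a1 was lost without replicate 3. Serpinb6a, an intracellular protease inhibitor, Slc23a1, a vitamin C transporter, and Plxna2, a semaphorin receptor, rose by 1.82, 1.96 and 3.55, the last from at most 1.17 CPM in WT/D45. Serping1, a complement protease inhibitor, rose by 3.77 from a low level, 0.170, 0.214 and 0.414 CPM in WT/D45, to 1.95, 8.43 and 3.21 CPM in D45/D45. Insig1, which retains the sterol sensor SCAP in the endoplasmic reticulum, rose by 1.09. The Y-linked genes Ddx3y, Uty and Eif2s3y are 3 of the 110 calls and reflect D45/D45 replicate 3 alone.

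**Figure D2:**
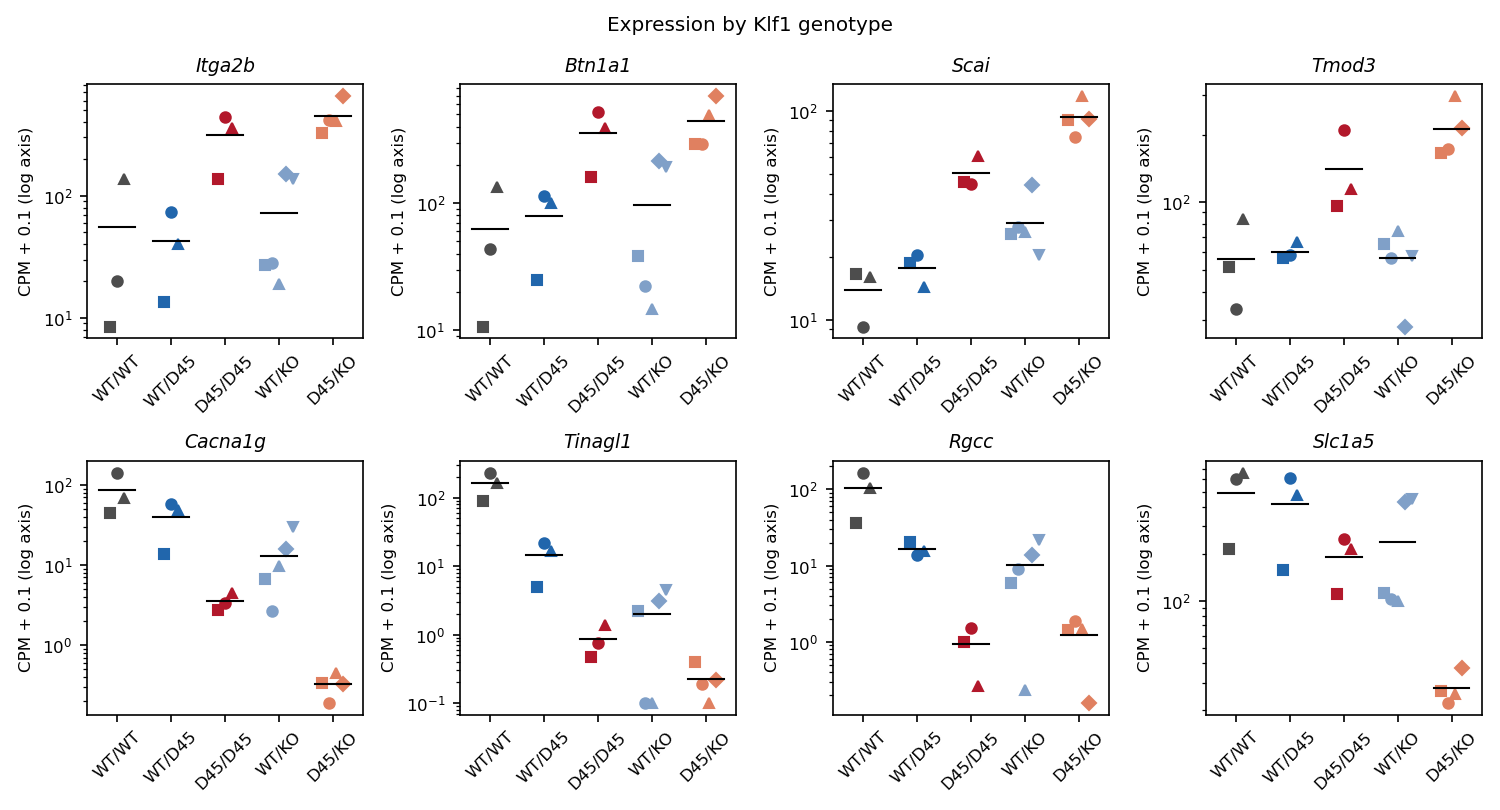
Expression of 4 genes that rose (top) and 4 that fell (bottom) from WT/D45 to D45/D45, as CPM + 0.1 on a log axis in all 18 libraries by genotype, with symbols for replicate numbers and bars for group means. Itga2b, Btn1a1, Scai and Tmod3 are higher in D45/D45 and D45/KO than in WT/D45, and Cacna1g, Tinagl1, Rgcc and Slc1a5 are lower.

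**Figure D3:**
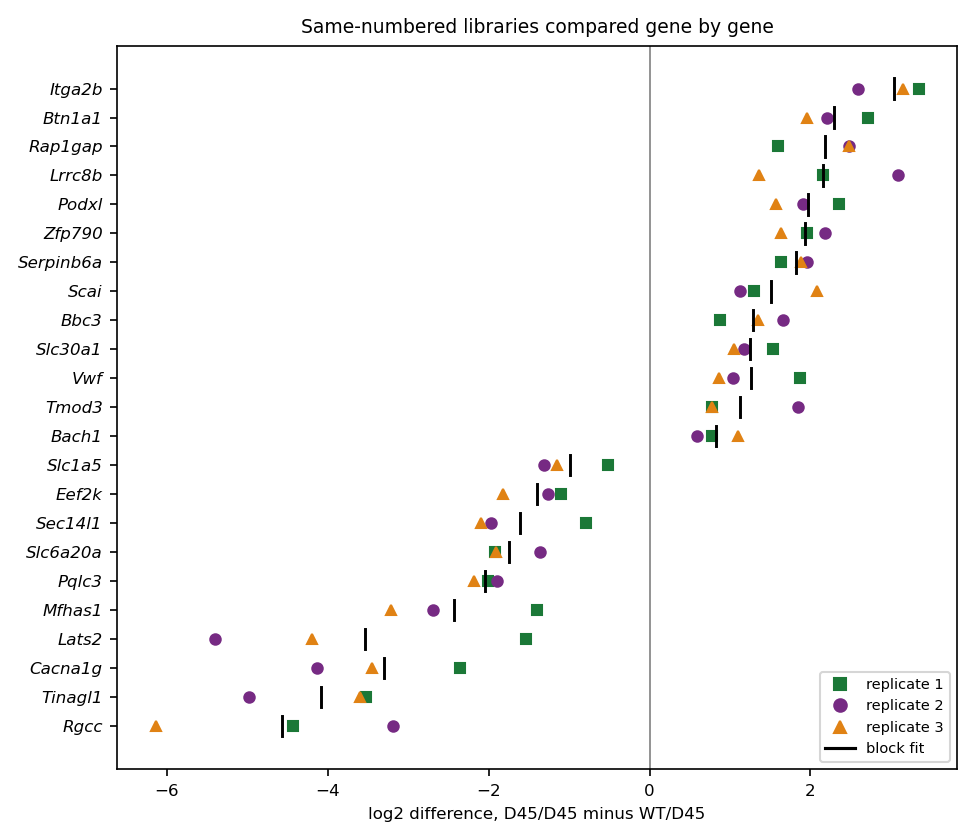
Log2 difference, D45/D45 minus WT/D45, between same-numbered libraries for 23 genes called with the replicate block, with the block fit as a black bar. All 3 pairs of each gene lie on the same side of 0, from 2.59 to 3.35 for Itga2b and from -6.14 to -3.19 for Rgcc. The genes were chosen by a fit that favours such agreement.

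The classical erythroid program had few calls. In the fit with genotype alone the SE was 1.38 for Slc4a1 and 1.44 for Alas2, so changes of that size could pass unseen. Here and below, counts above or below 0 and list medians are from the fit with genotype alone, and calls are from the fit with the block, in which 6770 of the 13405 genes were above 0. Of 34 tested genes on the list of textbook KLF1 targets, 22 were above 0 and the median log2 fold change was 0.14, beside -0.07 for all genes tested, of which 44.2% were above 0. Bcl11a was the 1 call of the list (1.08% of all genes tested were called) and fell, at 29.1, 2.14 and 2.34 CPM against 46.4, 7.05 and 10.96 CPM (log2 fold change -1.49 ± 0.33, edgeR adjusted p = 0.03 with the block). Its replicate 1 libraries were the highest in both groups and the groups overlapped. The call was lost without replicate 1 or without replicate 3 of both genotypes, and in the fit without the block the log2 fold change was 0.32 when WT/D45 replicate 1 was left out. B cells express Bcl11a too, and the B cell markers were high in the same libraries. The band 3 anion exchanger Slc4a1, a main membrane protein of red cells, was at 10728, 31717 and 30648 CPM in D45/D45 and at 6591, 33864 and 25274 CPM in WT/D45, with the range of the groups shared. Its log2 fold change was 0.15 ± 1.38. The log2 fold change of the Rh-associated glycoprotein Rhag was 0.47 ± 0.76, and that of the erythroid haem synthesis enzyme Alas2 was 0.28 ± 1.44. Pyruvate kinase Pklr had the smallest unadjusted p of the list, with a log2 fold change of -1.08 ± 0.71 (edgeR unadjusted p = 0.145). 8 further fixed genes, Aqp1, Kel, Icam4, Tfrc, Hbb-b1, Klf3, E2f2 and Dnase2a, had log2 fold changes between -0.23 and 0.20. None of these genes but Bcl11a was called with or without the block.

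The membrane skeleton, the spectrin and actin network under the red cell membrane, had 1 called gene among 21 tested, beside 1.08% of all genes. Tmod3, a tropomodulin that caps actin filaments, was at 96.5, 209 and 114 CPM in D45/D45 and at 56.2, 58.1 and 66.3 CPM in WT/D45, without overlap (log2 fold change 1.13 ± 0.22, edgeR adjusted p = 0.0142 with the block). The call was lost without replicate 2 of both genotypes. The other members had no call, and Tmod3 was known from earlier results of these data as raised in D45/KO. Ankyrin, Ank1, was at 0.24 ± 0.71 on the log2 scale, protein 4.1, Epb4.1, at 0.75 ± 1.07, protein 4.2, Epb4.2, at 0.36 ± 0.80 and dematin, Epb4.9, at -0.65 ± 0.79. The list median was 0.09 with 11 of 21 above 0. Among 24 blood group and surface glycoproteins, Podxl, a sialomucin, rose from 5.09, 2.78 and 4.05 CPM to 26.3, 10.6 and 12.1 CPM. Its genotypes did not overlap, the call was lost without replicate 1 of both, and the median of the list was 0.11. The integrin subunit Itgb1 had a log2 fold change of -0.48 ± 0.24 and no call.

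Of 36 tested membrane transporters 2 rose and 3 fell, beside 0.821% and 0.261% of all genes tested, and 31 were not called. The list was chosen with earlier results of these data known. In those results Slc1a5, Slc6a20a and Cacna1g were lowered and Lrrc8b was raised in D45/KO, so the share of calls is no test of the list. The list median was -0.04, and 0.08 with the block. Slc1a5, a neutral amino acid carrier, was at 109.9, 247 and 214 CPM in D45/D45 and at 158, 612 and 475 CPM in WT/D45. It was lower in every pair, but the groups overlapped because WT/D45 replicate 1 lay below D45/D45 replicates 2 and 3 (log2 fold change -0.99 ± 0.22, edgeR adjusted p = 0.0336 with the block, unadjusted p = 0.105 without it). Its call was lost when replicate 2 or replicate 3 of both genotypes was left out. Slc6a20a, a proline and imino acid carrier, fell without overlap from 14.3, 24.1 and 27.6 CPM to 3.72, 9.36 and 7.31 CPM, and Cacna1g is the third member that fell. Lrrc8b, an anion channel subunit that responds to cell volume, rose from 7.05, 4.70 and 20.5 CPM to 31.6, 40.5 and 52.4 CPM, again without overlap. The zinc exporter Slc30a1 rose from 33.3, 123 and 108 CPM to 96.03, 277 and 224 CPM, with replicate 1 low in both genotypes and the groups overlapping. The fatty acid translocase Cd36, by comparison, had a log2 fold change of -0.59 ± 0.79.

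Genes of haem synthesis and iron handling were mostly above 0, with 1 call among them. Of 18 haem synthesis genes, 15 were above 0 (median 0.29) and 0 passed with or without the block. With the block 16 of these 18 (median 0.35) and 15 of 18 iron genes (median 0.25) were above 0. Cpox, an enzyme of the pathway, was at 842, 3222 and 792 CPM in D45/D45 against 589.5, 1405 and 589 CPM in WT/D45, with D45/D45 replicate 2 the highest (log2 fold change 0.91 ± 0.78). Of 18 iron genes 14 were above 0 (median 0.22), and the haem-sensing repressor Bach1 rose from 34.8, 75.8 and 63.8 CPM to 59.6, 114 and 137 CPM with overlap (log2 fold change 0.82 ± 0.19, edgeR adjusted p = 0.0427 with the block). The call of Bach1 was lost without replicate 1 or replicate 3 of both genotypes. Of 28 erythroid transcription factors and cofactors, Bach1 and the corepressor Cbfa2t3 (0.96 ± 0.21) rose and Bcl11a fell, beside 0.821% and 0.261% of all genes tested. The embryonic globin gene Hbb-y, a target of repression by Bcl11a, was at 0.405, 2.43 and 2.46 CPM in D45/D45 and at 0.491, 0 and 0.745 CPM in WT/D45 and was not called (edgeR adjusted p = 0.86 with the block). Glycolytic enzymes had a median of -0.28 with 8 of 19 above 0 and no call.

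Cytokine and stress genes gave isolated calls. Cish, a feedback inhibitor of erythropoietin signalling, was at 38.6, 8.001 and 17.4 CPM in D45/D45 and at 8.09, 0 and 0.910 CPM in WT/D45. It was higher in every pair, although WT/D45 replicate 1 lay just above D45/D45 replicate 2 (log2 fold change 3.67 ± 0.54, edgeR adjusted p = 0.0012 with the block). Without the block its log2 fold change was 2.78, and ran from 2.02 without D45/D45 replicate 1 to 5.35 without WT/D45 replicate 1. The call of Cish was lost with the block that only set replicate 1 apart (edgeR adjusted p = 0.0799). Cish and Podxl were the 2 calls among 24 genes of the erythropoietin list, beside 0.821% of all genes that rose, and the list median was 0.06. Both genes were known from earlier results of these data as raised in D45/KO. Of 24 genes of the p53 list, 17 were above 0 (median 0.16) and the pro-apoptotic gene Bbc3 (PUMA) rose from 6.68, 15.6 and 18.9 CPM to 12.3, 49.4 and 48.2 CPM, with overlap between the genotypes. Trp53 itself had a log2 fold change of 0.64 ± 0.31 and no call. In the oxidant defence list 18 of 22 were above 0 (median 0.35), and sulfiredoxin, Srxn1, rose by 0.97. The peroxidase Prdx6 was at 39.3, 64.2 and 47.9 CPM against 38.02, 22.6 and 19.7 CPM, without overlap but with replicate 1 almost equal, and it was not called (edgeR adjusted p = 0.11 with the block). S, G2 and M phase genes had 27 of 31 above 0 at a median of 0.15, mitophagy and enucleation genes 20 of 25 at 0.33, integrated stress response genes 13 of 24 at 0.07, interferon genes 14 of 28 at 0.02 and ribosomal protein genes 38 of 76 at -0.01, all with 0 calls. With the block, 31 of 31 S, G2 and M phase genes were above 0 (median 0.20) and 21 of 25 mitophagy and enucleation genes (median 0.50). So were 16 of 24 integrated stress response genes (0.19), 22 of 28 interferon genes (0.26) and 50 of 76 ribosomal protein genes (0.06). The median of all genes tested was then 0.006. Of 22 genes of G1 and S entry 10 were above 0 (median -0.02), and Rgcc was the single call, beside 1.08% of all genes tested. Rgcc was known from earlier results of these data as lowered in D45/KO.

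**Figure D4:**
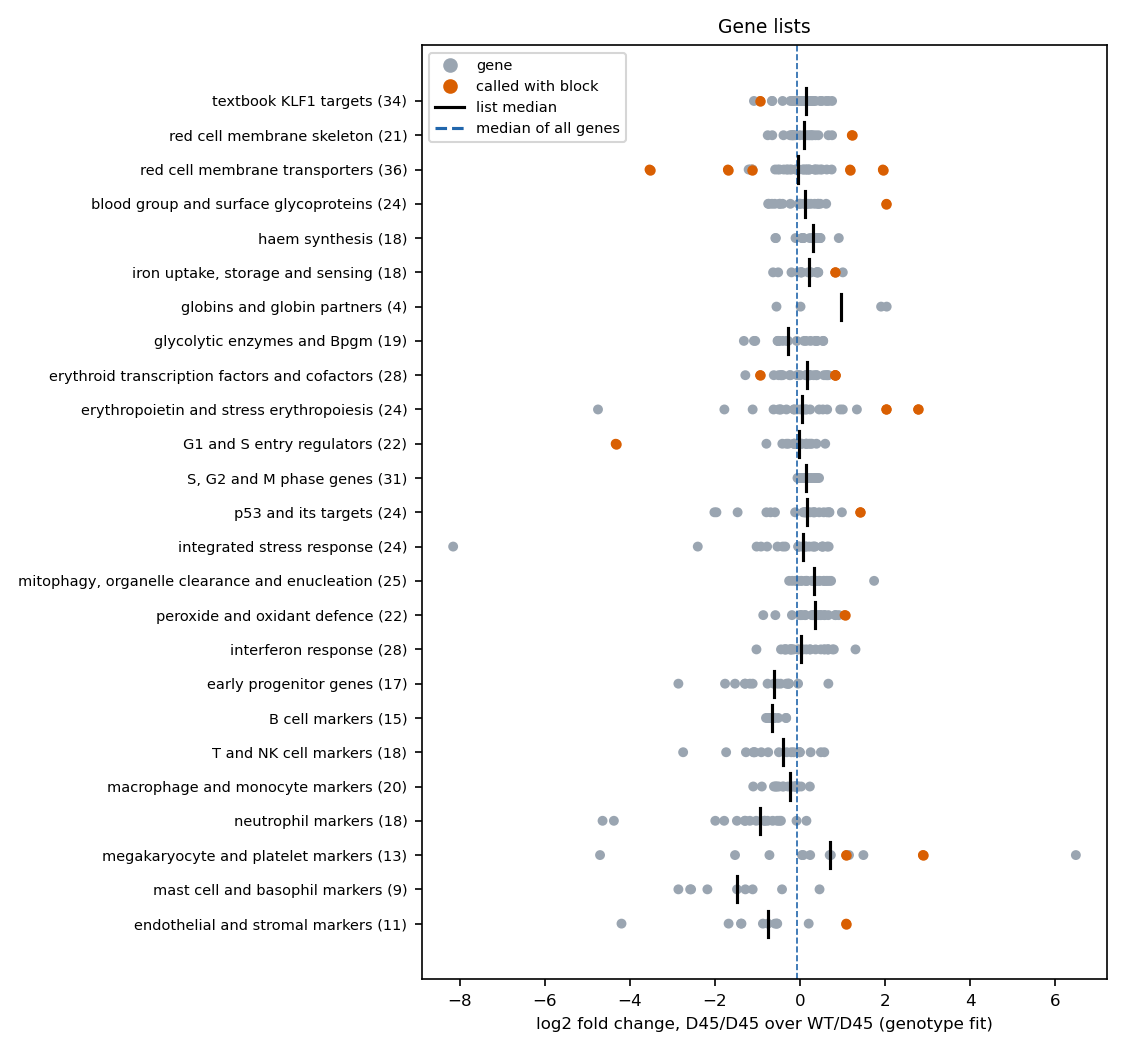
Log2 fold change of D45/D45 over WT/D45 for each tested gene of 25 lists (number tested in parentheses), with list medians as black bars, the median of all genes (-0.07) as a dashed line, and genes called with the replicate block in orange. In the fit with genotype alone, which is drawn here, most erythroid list medians lie within 0.35 of 0, and the calls are scattered outliers such as Cacna1g and Tmod3.

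Markers of other cell types lay mostly below 0 in the fit with genotype alone, with 1 exception. All 15 tested B cell markers were below 0 (median -0.66), as were 17 of 18 neutrophil markers (-0.93), 8 of 9 mast cell and basophil markers (-1.48), 18 of 20 macrophage markers (-0.24), 15 of 18 T and NK cell markers (-0.40), 9 of 11 endothelial and stromal markers (-0.76) and 16 of 17 early progenitor genes (-0.62). With the block the medians were -0.24 for B cell markers, of which 4 of 15 were above 0, -0.12 for T and NK cell markers, of which 9 of 18 were above 0, and -1.95, -2.34, -0.18, -0.61 and -0.67 for the neutrophil, mast cell and basophil, macrophage, endothelial and early progenitor lists. The 1 call among these lists was Vwf, which rose. B cell markers summed to 68.7 to 1827 CPM in D45/D45 and 31.6 to 2990.0 CPM in WT/D45, and neutrophil markers to 3.76 to 177 and 92.8 to 187 CPM. In the same order, mast cell and basophil markers summed to 1.04 to 16.9 and 4.59 to 53.1 CPM, macrophage markers to 319 to 506 and 318 to 565 CPM, and T and NK cell markers to 20.1 to 35.5 and 17.996 to 48.5 CPM. Endothelial and stromal markers summed to 74.3 to 129 and 52.0 to 86.3 CPM, and early progenitor genes to 208 to 421 and 162 to 284 CPM. These ranges overlapped. The medians rested on single libraries: that of the B cell markers was -6.24 without D45/D45 replicate 1 and 5.53 without WT/D45 replicate 1, that of the neutrophil markers -3.43 and of the mast cell and basophil markers -5.23 without D45/D45 replicate 1, and that of the endothelial markers 0.25 without WT/D45 replicate 2. The part of such cells in the other results was not tested. In bulk RNA, fewer cells of a type and less RNA per cell cannot be told apart.

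The exception was the megakaryocyte list, where 10 of 13 tested genes were above 0 (median 0.70), beside 44.2% of all genes tested. Itga2b and Vwf rose, beside 0.821% of all genes tested. The list median moved to 0.47 without D45/D45 replicate 1 and to 0.33 with limma-voom. The summed level of the list was 218, 620 and 500.3 CPM in D45/D45 and 48.8, 176 and 122 CPM in WT/D45, without overlap. Itga2b made up 63.1% to 71.6% of this sum in D45/D45 and 27.6% to 41.9% in WT/D45. Without Itga2b the sums were 80.3 to 176 CPM and 35.3 to 102 CPM, which overlapped. Vwf, von Willebrand factor, rose from 10.99, 57.8 and 45.2 CPM to 40.2, 119 and 82.03 CPM with overlap (log2 fold change 1.26 ± 0.22, edgeR adjusted p = 0.00504 with the block). The platelet glycoprotein Gp9 was at 31.98, 54.8 and 57.9 CPM against 16.98, 36.3 and 34.4 CPM and was not called (edgeR adjusted p = 0.098 with the block). Beside these 3 genes, Itgb3 reached 5.67 CPM. Pf4, Ppbp, Gp5, Gp6, Selp, Gp1ba, Tubb1 and Clec1b, named here because they were under 5 CPM in all 6 libraries, stayed at or under 3.42 CPM, the value of Pf4 in WT/D45 replicate 2. The part of megakaryocytes in the rise of Itga2b was not tested.

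The same replacement of a wild-type by a D45 allele can be read beside a KO allele, in D45/KO against WT/KO, which shares no library with the comparison above. With genotype as the only term, edgeR called 23 genes there (0.172% of those tested). All 15 that were higher in D45/KO were also above 0 in D45/D45 over WT/D45 (median 0.98), and all 8 that were lower were below 0 (median -1.59), beside 44.2% and 55.8% of all genes. With the block, 6 of the 15 rose and 5 of the 8 fell, beside 0.821% and 0.261% of all genes tested. In D45/KO against WT/WT, which called 83 genes (0.619%) and shares the D45/KO libraries with the former, 35 of 35 higher genes were above 0 (median 0.87) and 48 of 48 lower genes were below it (median -1.21). These counts held in each of the 3 same-numbered pairs taken alone for at least 14 of 15, 8 of 8, 32 of 35 and 46 of 48 genes.

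Read the other way, the 145 genes called with the block mostly kept their direction beside KO. Of the 110 that rose, 106 were above 0 in D45/KO over WT/KO (median 1.12), beside 40.8% of all genes tested (median -0.15). All 35 that fell were below 0 there (median -1.54), beside 59.2% of all genes tested. The 4 exceptions among the rises were the Y-linked Ddx3y and Uty, Myo15 and the unnamed transcript 2700097O09Rik, named here after their values were seen. Summed B cell markers averaged 2723 ± 2427 CPM in WT/KO (SD, n = 5) and 908 ± 1033 CPM in D45/KO (SD, n = 4). In WT/D45 they averaged 1052 ± 1679 CPM and in D45/D45 659 ± 1011 CPM (SD, n = 3 each). Both comparisons thus had the lower mean in the same direction. The part of B cells in the shared direction of genes was not tested. Mean levels in D45/KO went beyond those of D45/D45 in 62 of the 110 rises and 22 of the 35 falls. No share over all genes was computed for these counts. Podxl, Scai, Tmod3 and Slc1a5 were known from earlier results of these data as changed in D45/KO. Podxl was at 101 ± 51.1 CPM in D45/KO (SD, n = 4), Scai at 93.8 ± 17.7 CPM, Tmod3 at 212 ± 60.6 CPM and Slc1a5 at 27.6 ± 6.46 CPM, each past the D45/D45 libraries in the direction of their change, although Tmod3 overlapped with D45/D45 replicate 2. Itga2b, at 449.5 ± 142 CPM, overlapped with D45/D45. The adhesion receptor Gpr56 was at 33.6, 21.1 and 25.1 CPM in D45/D45, 10.7, 11.6 and 18.2 CPM in WT/D45 and 0.962 ± 0.648 CPM in WT/KO (SD, n = 5), and it was not called in D45/D45 against WT/D45.

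**Figure D5:**
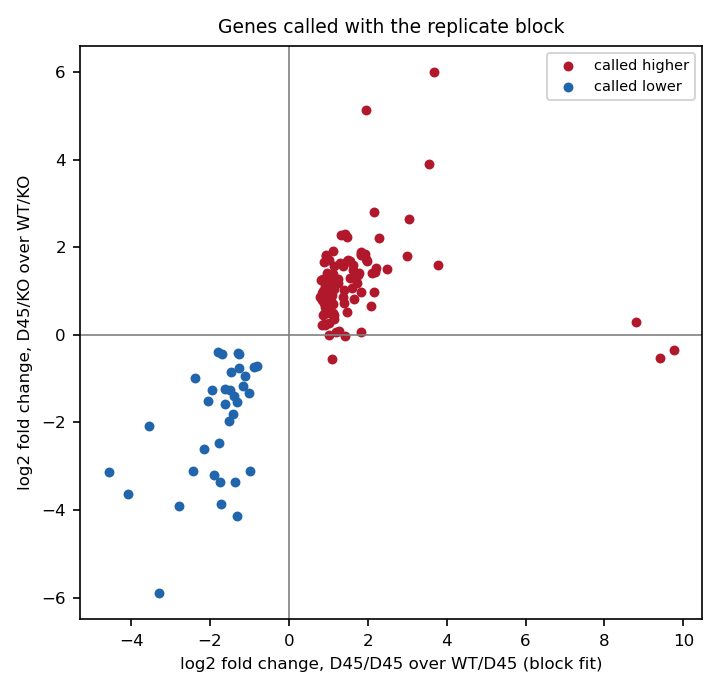
The 145 genes called with the replicate block, with their log2 fold change of D45/D45 over WT/D45 on the horizontal axis and of D45/KO over WT/KO, from other libraries, on the vertical axis. 106 of 110 rises and 35 of 35 falls have the same sign on both axes, and the 3 points beyond 8 on the horizontal axis are Y-linked.

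Whether the step differs by the partner allele was tested directly. In edgeR's fit with genotype alone, 0 genes were called for the difference between the D45 step beside D45 and beside KO, with 100 at an unadjusted p under 0.05, and the smallest adjusted p was 0.329 for Gm16793, a predicted gene. Likewise 0 genes were called for the difference between the step to the last wild-type allele and the step to the first (WT/D45 against WT/WT), with 168 at an unadjusted p under 0.05. With the replicate number as a block, added after seeing the data, both counts were again 0, with 223 and 320 genes at an unadjusted p under 0.05. This does not show that the steps are alike.

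The levels across WT/WT, WT/D45 and D45/D45 differed among the called genes. In 30 of the 35 falls the WT/D45 mean lay between those of WT/WT and D45/D45, and in 52 of the 110 rises. The order of WT/D45 and D45/D45 came largely with the choice of genes, so the count mainly reflects the side of WT/WT. No share over all genes was computed, and a difference between rises and falls was not tested. Tinagl1 averaged 162 ± 71.6 CPM with no D45 allele, 14.4 ± 8.76 CPM with 1 and 0.768 ± 0.476 CPM with 2 (SD, n = 3 each). Rgcc went from 102 ± 64.8 CPM to 16.4 ± 3.45 CPM and 0.826 ± 0.633 CPM. In both genes the WT/D45 libraries lay below all of WT/WT and above all of D45/D45. In the same order of genotypes, Scai was at 13.8 ± 4.01 CPM, 17.7 ± 3.09 CPM and 50.3 ± 9.06 CPM, Itga2b at 54.9 ± 70.9 CPM, 42.4 ± 30.1 CPM and 313 ± 158 CPM, and Tmod3 at 56.1 ± 25.6 CPM, 60.2 ± 5.37 CPM and 139.9 ± 60.8 CPM. In these 3 the WT/WT and WT/D45 libraries overlapped and the D45/D45 libraries lay above both, by the least for Itga2b, with 136.6 CPM in WT/WT replicate 3 and 137.3 CPM in D45/D45 replicate 1.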

How the data were processed

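Per the labels' protocols, RNA of the sorted spleen cells was isolated with Trizol and turned into libraries by a Swift Rapid RNA kit. HISAT2, featureCounts, limma and the mm9 genome are named in the submitters' processing notes, without versions. The sources used here do not state the strand setting, and overlapping antisense genes cannot be told apart. The authors deposited raw counts per gene symbol in 23365 rows for 18 libraries, and a further table of processed values was not used. Symbols turned into dates or repeated (27) were not named, and none was called.

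Groups were taken from the genotype labels. Counts were tested in R 4.3.3 with edgeR 4.0.16 (TMM, filterByExpr by genotype, quasi-likelihood fit to all 18 libraries, genotype only), and Benjamini-Hochberg adjusted p-values were called under 0.05 over 13405 genes. The SE is the log2 fold change divided by the square root of F. Replicate numbers come from the sample titles, which do not say what they mark. By the rule that every same-numbered pair correlates over 0.1, checked on deviations from group means (0.77, 0.26 and 0.37), they were taken to pair the libraries, and a fit with the number as a block was made on the 6 libraries with the same filter and TMM factors. D45/D45 replicate 2 correlated more with WT/D45 replicate 3 (0.42) than with its own number. D45/D45 replicate 3 with WT/D45 replicate 2 (0.19) also passed 0.1, so the rule would accept replicates 2 and 3 exchanged. Of same-numbered pairs over all genotypes, 9 of 9 without KO correlated over 0.1 but 6 of 18 with KO in 1 of the libraries, so a block for the last and first step used the 9 libraries without KO and one for the step beside KO all 18. Log2 CPM used a prior count of 2. Alternatives were DESeq2 1.42.0, limma-voom (limma 3.58.1), its library weights, size factors, no filter, a B cell marker covariate, a split at mouse number 200 and left-out libraries.

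The comparison, gene lists and named genes were chosen with earlier results of these data known. Named were Klf1, a fixed erythroid set, the 5 smallest p-values per direction, the 8 largest non-overlapping changes per direction at 10 CPM or more, and called genes or the smallest p of each list. Genes named because of a block call at 2 CPM or more were chosen after their values were seen, and some of the named genes are not reported here. Promoter sequences are from RefSeq on GRCm38.p6, a later build than mm9, matched by symbol for 9886 tested genes. With 15.8 to 56.3 M counts per library, 1 CPM stands for at least 15.8 counts before TMM adjustment, and no molecular identifiers are stated. Printed CPM values are adjusted, and in the smallest library, WT/D45 replicate 2, the TMM factor of 0.592 makes 1 CPM stand for fewer counts.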

Additional observations from a re-analysis of the deposited data

How the results depend on the processing

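With genotype as the only term, edgeR's count of 0 genes stayed 0 with size factors, no filter, the 6 libraries alone, the mouse number split, robust dispersion, limma-voom, each library left out in turn, replicates 2 and 3 only, and halved counts in D45/D45 replicate 1. It was 15 with DESeq2 (6 higher, 9 lower), 18 with limma-voom and library weights (3 and 15), 1 with the B cell marker covariate, 145 with the replicate block and 36 with a 2-level block that only set replicate 1 apart. For the difference beside KO, 0 became 1 with DESeq2, 1 with library weights and 4 with the covariate. For the difference between the last and first step each alternative that was run gave 0. Both differences were also at 0 with the replicate block. The fit to 6 libraries and the 2-level block were not run for them. The replicate block gave 155 to 224 genes with a same-numbered pair left out, 317 with DESeq2, 168 with limma-voom, 125 with size factors, 142 with halved counts and 36 with the 2-level block. Of its 145 genes, 65 were called with each pair left out. The block for the differences, the 2-level block, the left-out pairs, the block fits in other tools, halved counts and single pairs were chosen after seeing the data.

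Of 1026 values of the 54 named genes under alternatives, 10 changed sign, in 7 genes. With each library left out in turn, the log2 fold change ran from -3.27 (without D45/D45 replicate 1) to 0.32 (without WT/D45 replicate 1) for Bcl11a, and from -0.28, -0.13 and -0.024 (without WT/D45 replicate 1) to 0.61, 0.49 and 0.66 for Slc4a1, Ank1 and Epb4.2. Slc4a1 was also at -0.079 without D45/D45 replicate 2 and at -0.045 without D45/D45 replicate 3. The range was -0.36 (without D45/D45 replicate 3) to 1.20 for Alas2, with -0.20 without WT/D45 replicate 1, -0.073 (without D45/D45 replicate 2) to 1.45 for Cpox, and -1.004 to 0.070 (without WT/D45 replicate 2) for Cd36. The cause was not tested. Of 36 named genes called with the block, 17 were called with the 2-level block: Itga2b, Btn1a1, Rap1gap, Scai, Zfp790, Plxna2, Slc23a1, Slc30a1, Cacna1g, Tinagl1, Rgcc, Slc6a20a, Mfhas1, Pqlc3, Klhl7, Sec14l1 and Eef2k. Leaving out 1 library moved the log2 fold change without the block by over 1.5 times for 7 of the 36, Tmod3, Vwf, Cbfa2t3, Srxn1, Cish, Slc1a5 and Bcl11a, and leaving out a pair moved it with the block for 0. Block calls were lost without replicate 1 of both genotypes for Podxl, Bach1, Cbfa2t3 and Bcl11a, without replicate 2 for Pinx1, Insig1, Tmod3, Serping1, Slc1a5 and Neu3, and without replicate 3 for Pinx1, Insig1, Serping1, Slc23a1, Bach1, Srxn1, Slc1a5, Bcl11a, Tfcp2 and Tbccd1.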
